A study of Homo sapiens with 12 samples.

Results

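The ASO-L1 response of 186 genes, of 17947 genes tested, differed between the libraries numbered 1 and 2 and the libraries numbered 3 and 4. These 186 genes were chosen by the difference itself. In each set the log2 change was taken as ASO-L1 (2 libraries) against the pooled ASO-Ctr and SO-L1 controls (4 libraries), and the change in numbers 1 and 2 was subtracted from the change in numbers 3 and 4. This quantity is called the set difference below, and genes entered where edgeR's quasi-likelihood F test (two-sided) gave it an adjusted p (Benjamini-Hochberg, over all genes tested) under 0.05. They made up 1.04% of the genes tested. The response was more positive in numbers 3 and 4 for 68 genes (0.379%) and more negative there for 118 genes (0.657%). These shares over all genes tested belong beside each count of list members below. With offsets for the GC content of each gene, an alternative chosen after the data were seen, the split was 76 against 71. Because these values chose the genes, the set differences and the change in each set are given as a description, with no test. In the tests of 1 set alone, 38.1% of all genes passed in numbers 1 and 2 and 34.3% in numbers 3 and 4. Of the 186 genes, 54 passed without each of the 12 libraries in turn and 132 lost the call without at least 1 of them. For the genes of the second kind that are described below, the fits in which they did not pass are given by library or by number.

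All 12 libraries came from H9, an established human embryonic stem cell line, kept in RSeT medium and transfected with oligonucleotides at 25 nM. ASO-L1 is an antisense oligonucleotide against LINE1 (L1), the retrotransposon that fills much of the human genome. ASO-Ctr is the control antisense oligonucleotide and SO-L1 the second control, whose abbreviation the labels do not spell out. Each oligonucleotide has 4 libraries, and every culture, controls included, also received 10 nM DZNep, an inhibitor of S-adenosylhomocysteine hydrolase, and 5 nM TSA (trichostatin A), a histone deacetylase inhibitor, until harvest at 48 h without sorting. Trans-ISRIB (0.7 uM), emricasan (5 uM) and Y-27632 (10 uM) were present in all groups for the first 24 h after transfection. Whether libraries are separate cultures, and what libraries of the same number share, is not given by the labels, so p-values measure the spread between these samples, which may be technical. The series asks for the role of L1 in genes of the 8-cell stage in naive cells. L1 RNA itself was not analysed here.

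The libraries held 20367989 to 32180891 counts. Mitochondrial RNAs took 4.74 to 8.08% of control counts in numbers 1 and 2 and 7.61 to 7.93% in numbers 3 and 4. With ASO-L1 they took 6.77 to 6.80% and 6.04 to 8.81%. The pluripotency factors POU5F1 and NANOG were present in every library, at 915 CPM (counts scaled to library size) or more for POU5F1 and 109 CPM or more for NANOG. KLF17, a marker of the naive state, stood between 0.247 and 1.23 CPM.

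Several of the genes below belong to 3 well-studied programmes. Hypoxia-inducible factors (HIF) are destroyed when oxygen is plentiful and otherwise switch on glycolytic enzymes, collagen prolyl hydroxylases and their own negative regulators through sites with the core ACGTG. The sterol programme is switched on by SREBP factors when cell cholesterol is low. Actin assembly and cell tension act through SRF, and through YAP with its DNA-binding partners of the TEAD family, on genes of the cytoskeleton and of cell adhesion.

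**Figure D1:**
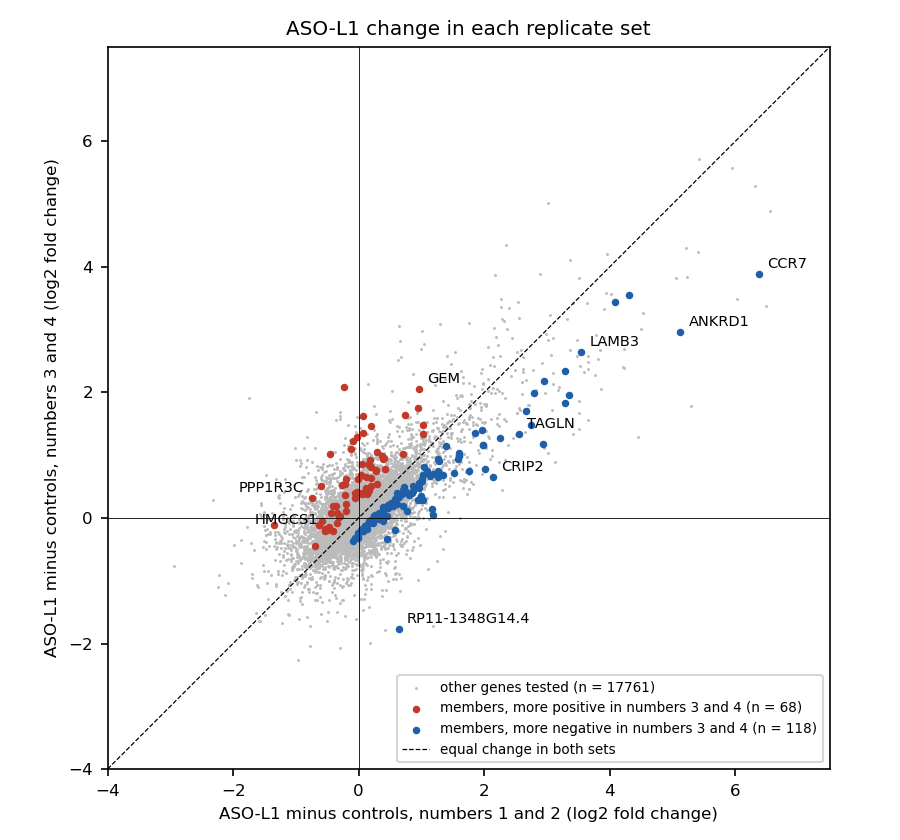
Log2 change with ASO-L1 against the pooled controls in numbers 1 and 2 (horizontal axis) and in numbers 3 and 4 (vertical axis), 1 point per gene tested, with the 186 genes whose response depended on the set in colour. Most of the blue points lie right of zero and below the dashed line of equal change, as 88 of the 118 genes were raised in both sets but less in numbers 3 and 4, and the red points lie above that line, most of them near 0 on the horizontal axis.

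The 68 genes with a more positive response in numbers 3 and 4 fell into 3 patterns. The change was above 0 in both sets and larger in numbers 3 and 4 for 33, of opposite sign in the 2 sets for 23, and below 0 in both and smaller in size in numbers 3 and 4 for 12. Their median log2 change was -0.02 in the first set (numbers 1 and 2) and 0.52 in the second. Of the 118 others, 88 were above 0 in both sets and nearer to 0 in numbers 3 and 4, 25 were of opposite sign, and 5 were below 0 in both and lower in numbers 3 and 4. Their medians were 0.69 and 0.28. The set difference was at least 2-fold for 12 of the 68 and 13 of the 118 genes, and under 0.5 on the log2 scale for 110 of all 186. All 186 had counts in every library, the fewest being 107 counts over the 12 libraries, so none rested on a group at 0. In every gene the difference kept its sign against ASO-Ctr alone and against SO-L1 alone, which the choice of genes by this difference makes likely. The control level was lower in numbers 3 and 4 for 56 of the 68 and for 9 of the 118, but it is a term of the set difference, so this split partly follows from how the genes were chosen.

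Genes that respond to low oxygen or feed glycolysis were found among the more positive responses, and their controls stood lower in numbers 3 and 4. BHLHE40, a transcriptional repressor induced by hypoxia and by serum, measured 76.9 and 80.3 CPM with ASO-Ctr, 83.05 and 86.9 with SO-L1, and 84.7 and 87.00 with ASO-L1 in numbers 1 and 2. In numbers 3 and 4 BHLHE40 measured 16.7 and 16.03 CPM with ASO-Ctr, 21.2 and 20.5 with SO-L1, and 47.7 and 47.8 with ASO-L1. The ASO-L1 libraries of numbers 1 and 2 overlapped with the controls, and those of numbers 3 and 4 stood above all 4 controls but below every library of the first set. The log2 change went from 0.07 ± 0.07 (SE) to 1.35 ± 0.08, a set difference of 1.28 ± 0.11. Averaged over both sets, a contrast that was not used to choose the genes, BHLHE40 rose by 0.71 ± 0.05 (edgeR adjusted p = 2.64e-08, 4 ASO-L1 against 8 control libraries).

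PFKFB3 makes the allosteric activator of phosphofructokinase and so drives glycolysis. It measured 134 and 134 CPM with ASO-Ctr, 133 and 139 with SO-L1, and 113 and 119.7 with ASO-L1 in numbers 1 and 2. In the other set it measured 41.5 and 41.6 CPM with ASO-Ctr, 43.7 and 43.7 with SO-L1, and 56.9 and 53.3 with ASO-L1. ASO-L1 thus lay below all controls in the first set and above all controls in the second, with changes of -0.21 ± 0.04 and 0.37 ± 0.05. ANGPTL4, an inhibitor of lipoprotein lipase and a hypoxia target, measured 3.20 and 3.004 CPM with ASO-Ctr, 3.01 and 3.18 with SO-L1, and 3.19 and 3.26 with ASO-L1 in numbers 1 and 2, where oligonucleotides overlapped. Numbers 3 and 4 gave 1.59 and 1.04 CPM with ASO-Ctr, 1.49 and 1.02 with SO-L1, and 3.99 and 4.02 with ASO-L1, and ASO-L1 was above all controls. PPP1R3C, which targets protein phosphatase to glycogen, measured 8.60 and 9.93 CPM with ASO-Ctr, 12.2 and 12.1 with SO-L1, and 6.06 and 6.62 with ASO-L1 in the first set and 3.03 and 3.35 CPM with ASO-Ctr, 3.08 and 3.10 with SO-L1, and 3.99 and 3.77 with ASO-L1 in the second. Its change went from -0.75 ± 0.11 to 0.31 ± 0.15.

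The sequence before the start site is shown for 3 of these genes, chosen because they hold the HIF core there. P4HA1 is described below and passed in 4 of the 12 fits without 1 library (adjusted p up to 0.362). The sequences are the 250 bases upstream of the RefSeq start site (GRCh38.p14), 5′ to 3′ on the gene's strand, and capitals mark ACGTG on either strand (CACGT when it lies on the opposite strand, and CACGTG where both overlap).
BHLHE40, chr3:4979187-4979436 (plus strand): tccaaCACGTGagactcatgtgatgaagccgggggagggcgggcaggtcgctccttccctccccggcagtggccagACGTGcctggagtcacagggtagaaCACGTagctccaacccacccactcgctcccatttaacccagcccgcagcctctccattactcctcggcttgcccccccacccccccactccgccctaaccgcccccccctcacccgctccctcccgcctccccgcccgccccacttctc
PPP1R3C, chr10:91633072-91633321 (minus strand): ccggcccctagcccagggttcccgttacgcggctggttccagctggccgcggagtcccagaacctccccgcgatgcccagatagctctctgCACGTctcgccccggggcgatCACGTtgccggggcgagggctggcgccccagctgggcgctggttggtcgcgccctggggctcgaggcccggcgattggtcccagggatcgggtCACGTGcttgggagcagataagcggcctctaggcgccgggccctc
P4HA1, chr10:73096867-73097116 (minus strand): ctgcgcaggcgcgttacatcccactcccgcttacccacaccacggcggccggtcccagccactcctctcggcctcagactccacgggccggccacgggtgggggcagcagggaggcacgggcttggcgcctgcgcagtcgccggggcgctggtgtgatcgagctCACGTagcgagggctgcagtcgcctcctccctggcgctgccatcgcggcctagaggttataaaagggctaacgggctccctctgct
BHLHE40 and PPP1R3C each held 4 matches, with CACGTG counted once on each strand, and P4HA1 held 1. The upstream bases of PFKFB3, ANGPTL4, ALDOC, INSIG2 and ERO1L also held the core and are not shown. Of 12202 tested genes with a RefSeq promoter window of 300 bases, 25.2% held at least 1 ACGTG on either strand, so a match by itself is common. A window was matched by symbol for 46 of the 68 genes (67.6%), of which 20 held ACGTG and 26 did not, and for 86 of the 118 (72.9%), of which 15 did. Over all genes tested 68% had a window. With under 80% of genes matched these are counts only, and the shares were not compared. A match is a description of letters and was not tested for binding.

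Other genes set beside these had smaller set differences. Of the genes above and here, BHLHE40, ANGPTL4, PPP1R3C, STOM, INSIG2, ERO1L and HIF1AN are outside the list of glycolysis and hypoxia genes. They were picked from the genes whose response depended on the set, so the grouping is a description. A link of STOM or INSIG2 to oxygen was not tested. EGLN3, a prolyl hydroxylase that marks HIF for destruction, stood at 36.9 to 40.1 CPM in the controls and 29.7 and 30.1 with ASO-L1 in numbers 1 and 2. In numbers 3 and 4 it stood at 16.9 to 21.6 CPM and 21.2 and 22.1, so its ASO-L1 libraries were below all controls in the first set and, in the second, 1 lay above them and 1 among them. P4HA1, the catalytic subunit of collagen prolyl hydroxylase, changed by -0.34 ± 0.04 and then -0.07 ± 0.05. ALDOC, a glycolytic aldolase, changed by -0.21 ± 0.05 and 0.12 ± 0.06, STOM, a membrane scaffold protein, by -0.21 ± 0.04 and 0.22 ± 0.04, and INSIG2, a retention factor of the sterol sensor, by -0.44 ± 0.06 and 0.07 ± 0.07. ERO1L, which oxidises protein disulfide isomerase in the endoplasmic reticulum, changed by 0.19 ± 0.05 and 0.51 ± 0.05. HIF1AN, which hydroxylates HIF and blocks its coactivator, went the other way, from 0.14 ± 0.05 to -0.10 ± 0.05. BHLHE40, PFKFB3, ANGPTL4, PPP1R3C, EGLN3, STOM and INSIG2 passed in all 12 fits without 1 library. ERO1L passed in 9 (not without ASO-L1 1, 2 or 4, adjusted p up to 0.0665), ALDOC in 5 (up to 0.135), P4HA1 in 4 (up to 0.362) and HIF1AN in 2 (up to 0.251).

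Of the 36 tested genes in the list of glycolysis and hypoxia genes, 4 were among the more positive responses (PFKFB3, EGLN3, ALDOC, P4HA1) and 0 among the more negative, and the list's median set difference was 0.07, against -0.00387 over all genes tested. The set difference was above 0 for 27 of the 36, and for 8784 of all 17947 genes tested. VEGFA, ADM and NDRG1, common hypoxia targets, had set differences of 0.37 ± 0.16, 0.35 ± 0.13 and 0.34 ± 0.12 and did not pass, and BNIP3 had -0.29 ± 0.08. Averaged over sets, 6 of the list's genes were higher with ASO-L1, NDRG1 among them at 1.42 ± 0.06, and 19 were lower. In the controls the list summed to 16368 to 17413 CPM in numbers 1 and 2 and 10676 to 11607 CPM in numbers 3 and 4. The control sums of the 2 sets did not overlap, and the control level enters the set difference with a minus sign. What separates the sets is not given in the labels, and the part of the control level in the differing response was not tested.

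**Figure D2:**
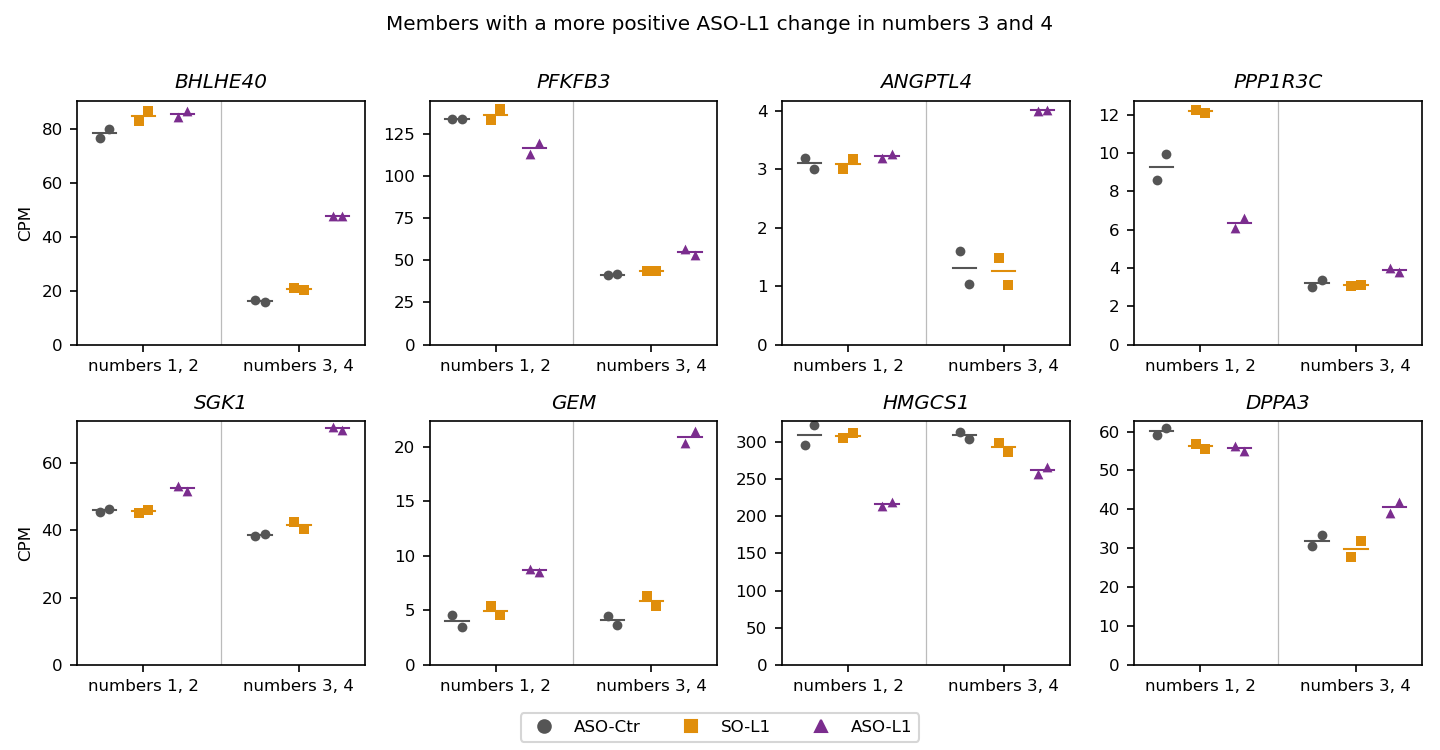
Level in CPM (vertical axis, linear, from 0) of 8 genes with a more positive response in numbers 3 and 4, 1 point per library and a line at the mean of the 2 libraries of an oligonucleotide and set. BHLHE40, PFKFB3, ANGPTL4 and PPP1R3C had lower controls in numbers 3 and 4, and HMGCS1 had controls of about the same level with ASO-L1 lower in both sets.

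TXNIP and its relatives ARRDC4 and ARRDC2, arrestin-domain proteins of which TXNIP and ARRDC4 restrain glucose uptake, were all raised more in numbers 3 and 4. TXNIP measured 26.99 and 28.1 CPM with ASO-Ctr, 31.8 and 31.99 with SO-L1, and 39.4 and 37.5 with ASO-L1 in the first set. In the second it measured 10.96 and 15.3 CPM with ASO-Ctr, 13.1 and 14.5 with SO-L1, and 26.6 and 26.7 with ASO-L1. ASO-L1 was above all controls in each set, with changes of 0.37 ± 0.08 and 0.99 ± 0.09, and on average TXNIP rose by 0.68 ± 0.06 (adjusted p = 1.99e-08). The change of ARRDC4 was 0.17 ± 0.08 and 0.87 ± 0.08, and that of ARRDC2 was 0.39 ± 0.08 and 0.94 ± 0.09. ARRDC4 passed in all 12 fits without 1 library. TXNIP did not pass without any 1 of the 4 ASO-L1 libraries (adjusted p up to 0.141), with its set difference between 0.53 and 0.68, nor did ARRDC2 without ASO-L1 2 or 4 (up to 0.133).

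Early response and growth-arrest genes formed the next group. SGK1, a kinase induced by serum and glucocorticoids, measured 45.5 and 46.4 CPM with ASO-Ctr, 45.2 and 45.9 with SO-L1, and 53.2 and 51.6 with ASO-L1 in numbers 1 and 2. The same gene measured 38.3 and 38.9 CPM with ASO-Ctr, 42.4 and 40.4 with SO-L1, and 70.7 and 69.7 with ASO-L1 in numbers 3 and 4. ASO-L1 stood above all controls in both sets, by 0.19 ± 0.05 and then by 0.81 ± 0.05, and the average rise was 0.50 ± 0.03 (adjusted p = 2.62e-16). GEM, a small GTPase that inhibits calcium channels, measured 4.62 and 3.48 CPM with ASO-Ctr, 5.43 and 4.53 with SO-L1, and 8.82 and 8.50 with ASO-L1 in the first set and 4.50 and 3.69 CPM with ASO-Ctr, 6.30 and 5.43 with SO-L1, and 20.4 and 21.4 with ASO-L1 in the second. Controls of GEM differed little between the sets while the ASO-L1 libraries of the 2 sets were far apart. IER3, an early gene that acts on cell survival, changed by 0.29 ± 0.12 and 1.04 ± 0.09, FOSL1, a subunit of AP-1, by 0.28 ± 0.08 and 0.74 ± 0.09, and RGS2, a regulator of G-protein signals, by 0.40 ± 0.08 and 0.96 ± 0.08. GADD45A, a growth-arrest gene, changed by 1.03 ± 0.08 and 1.48 ± 0.07, and CDKN1A, the p21 inhibitor of cyclin-dependent kinases, by 0.16 ± 0.04 and 0.45 ± 0.04. BTG1, an antiproliferative factor, went from -0.07 ± 0.05 to 0.32 ± 0.05. SGK1 and BTG1 passed in all 12 fits without 1 library. IER3 did not pass in the fit lacking ASO-L1 1 (adjusted p = 0.0505), RGS2 without ASO-L1 2 (0.0768), CDKN1A without ASO-L1 2 or 4 (up to 0.0866) and GEM without ASO-L1 1, 2 or 4 (up to 0.14). GADD45A passed in 5 of the 12 fits (up to 0.142) and FOSL1 in 3 (up to 0.258).

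Of 30 tested immediate early and AP-1 genes, 4 were in the more positive group (SGK1, BHLHE40, IER3, FOSL1) and 1, MYC, in the more negative group. MYC, a driver of growth, measured 36.4 to 42.4 CPM in the controls and 57.3 and 56.4 CPM with ASO-L1 in numbers 1 and 2, and 60.3 to 65.2 CPM and 73.2 and 75.9 CPM in numbers 3 and 4. MYC passed in 4 of the 12 fits without 1 library (adjusted p up to 0.153). The list's median set difference was 0.08, with 17 of its 30 genes above 0 and 13 below. On average 29 of the 30 rose with ASO-L1. Of 23 tested genes of ERK feedback, 0 were members in either direction. Heat shock proteins HSPA1B and HSPA2 were members. HSPA1B, a stress-inducible HSP70, changed by 0.20 ± 0.06 and 0.63 ± 0.06. HSPA2, an HSP70 of the testis, stood at 37.1 to 42.8 CPM in the controls and 30.1 and 29.96 with ASO-L1 in numbers 1 and 2, and at 39.7 to 49.2 CPM and 51.3 and 51.5 in numbers 3 and 4. ASO-L1 was thus below all controls in the first set and above all in the second, and the average change was -0.11 ± 0.05 (adjusted p = 0.0476). HSPA1B was 1 of 15 tested cytosolic heat shock genes in a list that does not hold HSPA2. HSPA1B did not pass against ASO-Ctr alone.

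Among the more positive genes were 5 of the list of cholesterol and fatty acid synthesis, each with a change below 0 in both sets and nearer to 0 in numbers 3 and 4. HMGCS1, an early enzyme of the pathway, measured 295 and 322 CPM with ASO-Ctr, 305 and 311 with SO-L1, and 214 and 219 with ASO-L1 in numbers 1 and 2. It measured 313 and 304 CPM with ASO-Ctr, 298 and 286 with SO-L1, and 257 and 266 with ASO-L1 in numbers 3 and 4. Every ASO-L1 library was below every control, and on average HMGCS1 fell by 0.35 ± 0.03 (adjusted p = 5.42e-14). MSMO1, a demethylase of sterol synthesis, changed by -0.54 ± 0.04 and -0.18 ± 0.04. SQLE, squalene epoxidase, changed by -0.42 ± 0.04 and -0.20 ± 0.04, and STARD4, a carrier of cholesterol, by -0.49 ± 0.05 and -0.18 ± 0.05. INSIG1, which holds the SREBP escort in the endoplasmic reticulum, changed by -0.48 ± 0.04 and -0.15 ± 0.04. ACSS2, which makes acetyl-CoA from acetate, went from -0.34 ± 0.07 to 0.07 ± 0.07. HMGCS1, MSMO1 and INSIG1 passed in all 12 fits without 1 library, STARD4 not without ASO-L1 2 or 4 (adjusted p up to 0.0871), and SQLE and ACSS2 in 6 each (up to 0.242 and 0.142).

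Of 32 tested genes of cholesterol and fatty acid synthesis, 5 were in the more positive group and 0 in the more negative. Over all genes tested these shares were 0.379% and 0.657%. The list's median set difference was 0.06 and 24 of the 32 lay above 0, as did 8784 of all 17947 genes tested. On average 26 of the 32 fell with ASO-L1 and 0 rose. In the controls the list summed to 8303 to 8936 CPM in numbers 1 and 2 and 8099 to 8169 CPM in numbers 3 and 4, which is a smaller gap than in the hypoxia list.

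DPPA3, a maternal factor that protects DNA methylation and marks naive cells, measured 59.2 and 60.99 CPM with ASO-Ctr, 56.8 and 55.6 with SO-L1, and 56.4 and 55.1 with ASO-L1 in numbers 1 and 2. It measured 30.5 and 33.3 CPM with ASO-Ctr, 27.7 and 31.8 with SO-L1, and 39.2 and 41.9 with ASO-L1 in numbers 3 and 4. Its ASO-L1 libraries lay among or just below the controls in the first set and above them in the second. The average change was 0.17 ± 0.04 (adjusted p = 0.000432). DPPA3P2, a processed copy of DPPA3, changed by -0.21 ± 0.12 and 0.55 ± 0.14. Reads of 2 near-identical copies can be split between them, so these 2 are not independent. CCNA1, a cyclin counted here among genes of the 8-cell stage, measured 19.7 and 20.7 CPM with ASO-Ctr, 22.2 and 23.2 with SO-L1, and 43.6 and 43.5 with ASO-L1 in numbers 1 and 2, and 48.9 and 46.3 CPM with ASO-Ctr, 51.1 and 48.7 with SO-L1, and 126 and 122 with ASO-L1 in numbers 3 and 4. All ASO-L1 libraries were above all controls of their set and the controls themselves were higher in numbers 3 and 4, with no overlap. CCNA1 rose by 1.18 ± 0.04 on average (edgeR adjusted p = 4.08e-27). Against ASO-Ctr alone the set differences of CCNA1 and DPPA3P2 did not pass. DPPA3 passed in all 12 fits without 1 library, while CCNA1 and DPPA3P2 passed in 8 each (adjusted p up to 0.0896 and 0.235; CCNA1 was lost without ASO-L1 1, 2 or 3 or SO-L1 2, and DPPA3P2 without ASO-L1 2 or 4, ASO-Ctr 3 or SO-L1 4).

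Of 12 tested genes of the 8-cell stage, CCNA1 was the 1 member, and the median set difference of the 12 was 0.62. It was above 0 for 10 of the 12 and below 0 for 2, where 8784 of all 17947 genes tested were above 0. The whole list summed to 144 to 159 CPM in the controls and 278 to 289 CPM with ASO-L1 in numbers 1 and 2. For numbers 3 and 4 the sums were 234 to 261 CPM and 580 to 595 CPM. ZSCAN4, a marker of that stage, stood at 0.0987 to 0.344 CPM in the controls and 0.669 and 0.659 CPM with ASO-L1 in numbers 1 and 2, and at 0.212 to 0.339 CPM and 1.53 and 1.93 CPM in numbers 3 and 4. Its set difference was 1.17 ± 0.51 (adjusted p = 0.324). KLF17 had a set difference of 1.49 ± 0.54 (adjusted p = 0.21). At these low levels the SE was about 0.5, and differences of this size did not pass. The naive marker TFCP2L1, at -0.30 ± 0.09, did not pass (adjusted p = 0.126). POU5F1 and NANOG had set differences of -0.02 ± 0.05 and -0.01 ± 0.06. DPPA3 was 1 of 23 tested naive genes, and 0 of 35 silencing factors of L1 and heterochromatin and 0 of 12 PRC2 subunits were members. ID2 and ID4, inhibitors of DNA-binding factors that BMP signals induce, were 2 of 16 tested BMP response genes. ID2 changed by -0.20 ± 0.12 and 0.62 ± 0.10 and ID4 by -0.01 ± 0.10 and 0.62 ± 0.10. Neither passed without ASO-L1 2, and ID4 also not without ASO-L1 4 (adjusted p up to 0.141 for ID2 and 0.154 for ID4).

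The more negative responses were led in size by CCR7, RP11-1348G14.4 and ANKRD1, at set differences of -2.49, -2.40 and -2.16. CCR7, a chemokine receptor of lymphocytes and dendritic cells, measured 0.148 and 0.444 CPM with ASO-Ctr, 0.296 and 0.392 with SO-L1, and 28.02 and 28.1 with ASO-L1 in numbers 1 and 2. In numbers 3 and 4 it measured 2.59 and 2.36 CPM with ASO-Ctr, 3.39 and 2.67 with SO-L1, and 41.3 and 41.1 with ASO-L1. All ASO-L1 libraries were far above all controls of their set. Both levels were higher in numbers 3 and 4, the controls by the larger factor, so the log2 change went from 6.37 ± 0.14 to 3.89 ± 0.09. The controls of numbers 1 and 2, at 0.148 to 0.444 CPM, were near the low end of detection. The size of the first change, and so of the set difference, rests on few control counts. CCR7 rose by 5.13 ± 0.08 on average (adjusted p = 2.14e-36). RP11-1348G14.4, a transcript named by its clone, measured 0.295 and 0.307 CPM with ASO-Ctr, 0.296 and 0.261 with SO-L1, and 0.512 and 0.408 with ASO-L1 in numbers 1 and 2 and 0.558 and 0.497 CPM with ASO-Ctr, 0.339 and 0.467 with SO-L1, and 0.139 and 0.123 with ASO-L1 in numbers 3 and 4. It crossed 0, from 0.64 ± 0.39 to -1.77 ± 0.49. It passed in 1 of the 12 fits without 1 library (adjusted p up to 0.249).

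TAGLN, the actin-binding protein transgelin and a classical SRF target, measured 4.28 and 4.03 CPM with ASO-Ctr, 4.64 and 3.88 with SO-L1, and 24.4 and 24.7 with ASO-L1 in numbers 1 and 2. In numbers 3 and 4 TAGLN measured 7.05 and 6.54 CPM with ASO-Ctr, 6.91 and 7.39 with SO-L1, and 16.8 and 18.2 with ASO-L1. Both sets had ASO-L1 above all controls, yet ASO-L1 was lower and the controls higher in the second set, so that the change went from 2.55 ± 0.08 to 1.33 ± 0.08. ANKRD1, a cardiac ankyrin repeat protein and a target of YAP, measured 0.541 and 0.239 CPM with ASO-Ctr, 0.543 and 0.567 with SO-L1, and 16.9 and 15.1 with ASO-L1 in numbers 1 and 2. The other set gave 0.518 and 0.456 CPM with ASO-Ctr, 0.644 and 0.255 with SO-L1, and 3.86 and 3.65 with ASO-L1. Controls of ANKRD1 were alike in both sets, near the low end of detection, while the ASO-L1 level was far higher in numbers 1 and 2. AMOTL2, a junction protein and YAP target, measured 32.8 and 33.9 CPM with ASO-Ctr, 32.4 and 31.9 with SO-L1, and 65.8 and 62.6 with ASO-L1 in the first set and 28.98 and 34.6 CPM with ASO-Ctr, 34.8 and 34.9 with SO-L1, and 46.96 and 45.5 with ASO-L1 in the second. Its controls overlapped between the sets and its ASO-L1 libraries did not.

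The 250 bases before the start site of ANKRD1, AMOTL2 and skeletal muscle actin ACTA1 are shown because they hold the TEAD core and the change was smaller in numbers 3 and 4. They are from RefSeq (GRCh38.p14), 5′ to 3′ on the gene's strand, with capitals at GGAATG, the TEAD core, on either strand (CATTCC when it lies on the opposite strand).
ANKRD1, chr10:90921088-90921337 (minus strand): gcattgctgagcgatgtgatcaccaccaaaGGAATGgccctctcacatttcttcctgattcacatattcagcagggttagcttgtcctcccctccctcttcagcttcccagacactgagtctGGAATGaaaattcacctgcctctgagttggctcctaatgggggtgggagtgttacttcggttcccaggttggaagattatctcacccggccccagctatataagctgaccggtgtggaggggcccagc
AMOTL2, chr3:134374448-134374697 (minus strand): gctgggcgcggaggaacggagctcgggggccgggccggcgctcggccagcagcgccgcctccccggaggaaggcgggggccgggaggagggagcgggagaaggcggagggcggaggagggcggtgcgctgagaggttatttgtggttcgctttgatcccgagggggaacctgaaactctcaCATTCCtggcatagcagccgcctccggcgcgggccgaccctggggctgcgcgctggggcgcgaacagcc
ACTA1, chr1:229434095-229434344 (minus strand): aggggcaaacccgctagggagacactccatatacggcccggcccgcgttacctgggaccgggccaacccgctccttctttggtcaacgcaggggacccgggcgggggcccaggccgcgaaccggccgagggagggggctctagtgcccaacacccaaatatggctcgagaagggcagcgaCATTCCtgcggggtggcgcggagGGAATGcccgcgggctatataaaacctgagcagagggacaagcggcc
ANKRD1 and ACTA1 held 2 matches and AMOTL2 held 1, and 11.1% of the 12202 promoter windows of 300 bases held at least 1. Of the 86 more negative genes with a window 16 held it, and of the 46 more positive genes 5. Binding of TEAD was not measured.

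FLNC, muscle filamin, stood at 60.04 to 73.6 CPM in the controls and 619 and 646 CPM with ASO-L1 in numbers 1 and 2, and at 94.2 to 119 CPM and 564 and 534 CPM in the other set. ACTA1 changed by 0.97 ± 0.05 and 0.56 ± 0.05, and ACTC1, cardiac actin, by 1.02 ± 0.10 and 0.28 ± 0.10. TAGLN2, a relative of TAGLN, changed by 1.01 ± 0.04 and 0.61 ± 0.04, CSRP1, a LIM protein of actin bundles, by 0.85 ± 0.06 and 0.40 ± 0.05, and ZYX, zyxin of focal adhesions, by 0.61 ± 0.04 and 0.40 ± 0.04. FLNC passed in 6 of the 12 fits without 1 library (adjusted p up to 0.137) and ZYX in 5 (up to 0.224), and the others named here in all 12. ACTA1 and ACTC1 did not pass against ASO-Ctr alone. Of the 33 tested actin, SRF and YAP target genes, 7 were in the more negative group (TAGLN, ANKRD1, AMOTL2, ACTA1, TAGLN2, FLNC, ZYX) and 0 in the more positive. The median set difference was -0.09, and 27 of the 33 lay below 0, as did 9163 of all 17947 genes tested. Over all genes tested 0.657% were in the more negative group and 0.379% in the more positive. CYR61 and CTGF, 2 much-used YAP targets, had set differences of -0.12 ± 0.09 and 0.20 ± 0.08, and VCL and SRF had 0.10 ± 0.05 and -0.05 ± 0.06. On average 24 of the 33 rose with ASO-L1 and 2 fell.

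**Figure D3:**
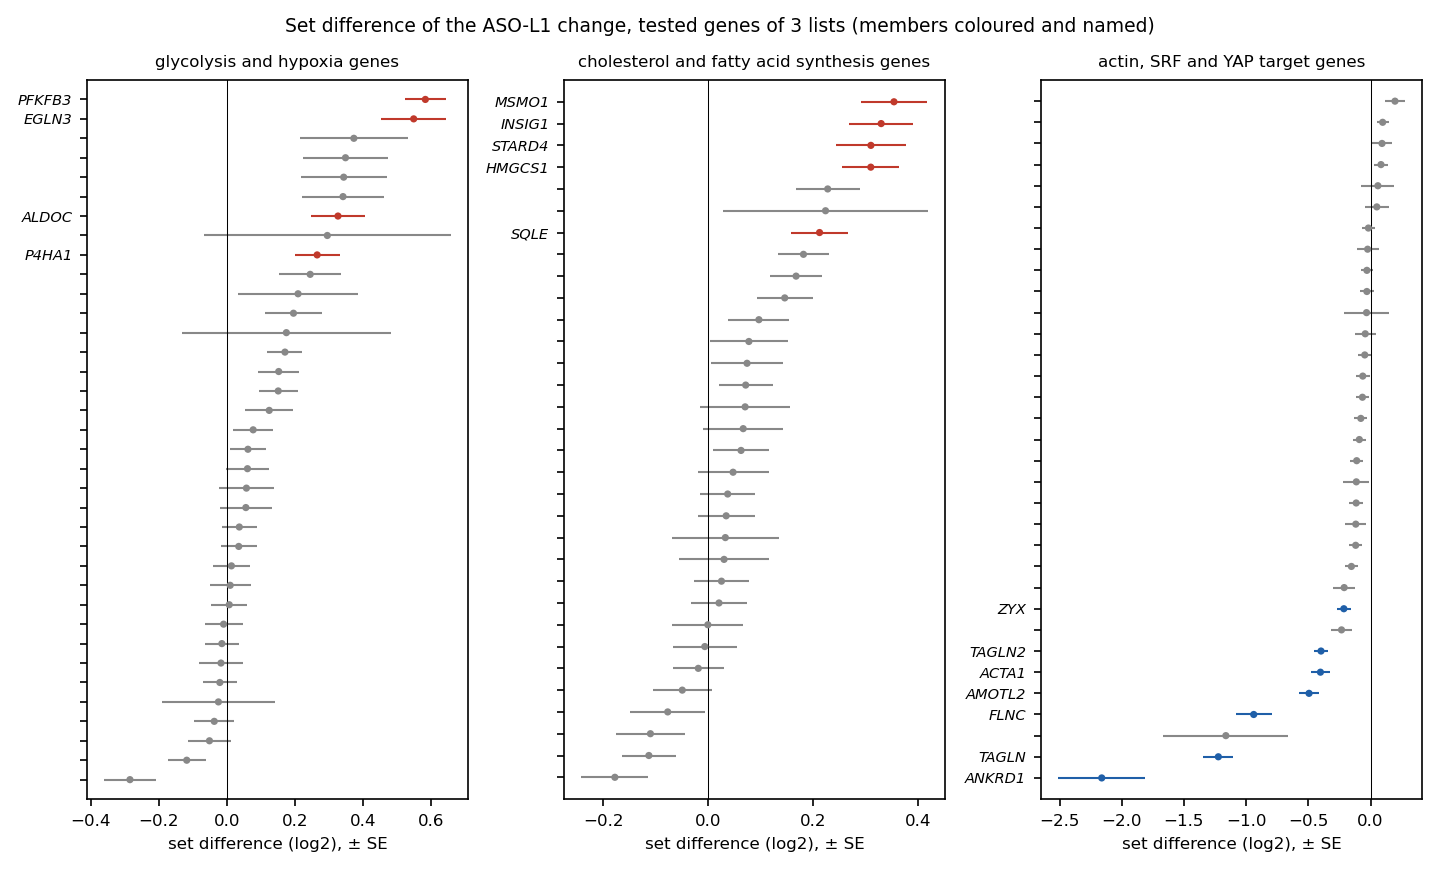
Set difference in log2 with its SE (horizontal axis) for every tested gene of the lists of hypoxia and glycolysis (36 genes), cholesterol and fatty acid synthesis (32) and actin, SRF and YAP targets (33), with members in colour and named. The coloured genes lie in the upper part of the first 2 lists (4 and 5 genes) and in the lower part of the third (7 genes), with grey genes of similar size and larger SE among them.

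Other more negative genes, chosen after their values were seen and in no common list, are given next. CAPN2, a calcium-dependent protease, measured 26.2 and 25.1 CPM with ASO-Ctr, 24.3 and 25.6 with SO-L1, and 61.5 and 60.4 with ASO-L1 in numbers 1 and 2. It measured 35.7 and 37.4 CPM with ASO-Ctr, 37.4 and 35.6 with SO-L1, and 59.99 and 62.8 with ASO-L1 in numbers 3 and 4. ASO-L1 levels of the 2 sets overlapped, and the controls were higher in the second set with no overlap. The change was 1.27 ± 0.05 and then 0.75 ± 0.05. PLAT, the tissue plasminogen activator, changed by 1.98 ± 0.10 and 1.17 ± 0.09. S100A6, a calcium-binding protein, stood at 6.24 to 8.54 CPM in the controls and 34.6 and 33.9 CPM with ASO-L1 in the first set, and at 13.9 to 16.6 CPM and 37.4 and 34.8 CPM in the second. LAMB3, a laminin chain of epithelial basement membrane, changed by 3.54 ± 0.10 and 2.64 ± 0.08. CLDN4, a tight junction protein, changed by 2.67 ± 0.10 and 1.71 ± 0.10, and CD44, the hyaluronan receptor, by 1.59 ± 0.06 and 1.04 ± 0.06. IGFBP6, which binds insulin-like growth factor 2, changed by 3.35 ± 0.12 and 1.96 ± 0.11. CRIP2 and CRIP1, small LIM proteins, changed by 2.14 ± 0.11 and 2.02 ± 0.15 in the first set and by 0.65 ± 0.10 and 0.78 ± 0.14 in the second. MXRA8, an adhesion protein, changed by 1.60 ± 0.06 and 0.999 ± 0.06. All of these passed in all 12 fits without 1 library except CRIP1, which passed in 9 of them (not without ASO-L1 1, 2 or 4, adjusted p up to 0.0681).

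H19, the imprinted noncoding RNA, measured 19.7 and 19.1 CPM with ASO-Ctr, 18.2 and 20.5 with SO-L1, and 55.02 and 62.1 with ASO-L1 in the first set. Numbers 3 and 4 gave 37.03 and 34.4 CPM with ASO-Ctr, 37.1 and 36.1 with SO-L1, and 72.00 and 71.7 with ASO-L1. ASO-L1 was above all controls in both sets, and both levels were higher in the second. H19 was 1 member of 23 tested imprinted genes. TEAD1 itself was 1 of 5 genes below 0 in both sets, at -0.02 ± 0.04 and -0.31 ± 0.04, and FZD7, a Wnt receptor of primed cells, was another, at -0.09 ± 0.04 and -0.37 ± 0.04. Neither passed without ASO-L1 2 or 4 (adjusted p up to 0.113 and 0.0766). FOXD3, a factor that represses differentiation in pluripotent cells, stood at 5.05 to 6.74 CPM in the controls and 9.56 and 8.82 CPM with ASO-L1 in numbers 1 and 2. For the other set FOXD3 stood at 11.5 to 14.2 CPM in the controls and 11.4 and 10.9 CPM with ASO-L1, below every control. FOXD3 was the 1 member among 22 tested core pluripotency genes, and it and H19 passed in all 12 fits without 1 library.

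**Figure D4:**
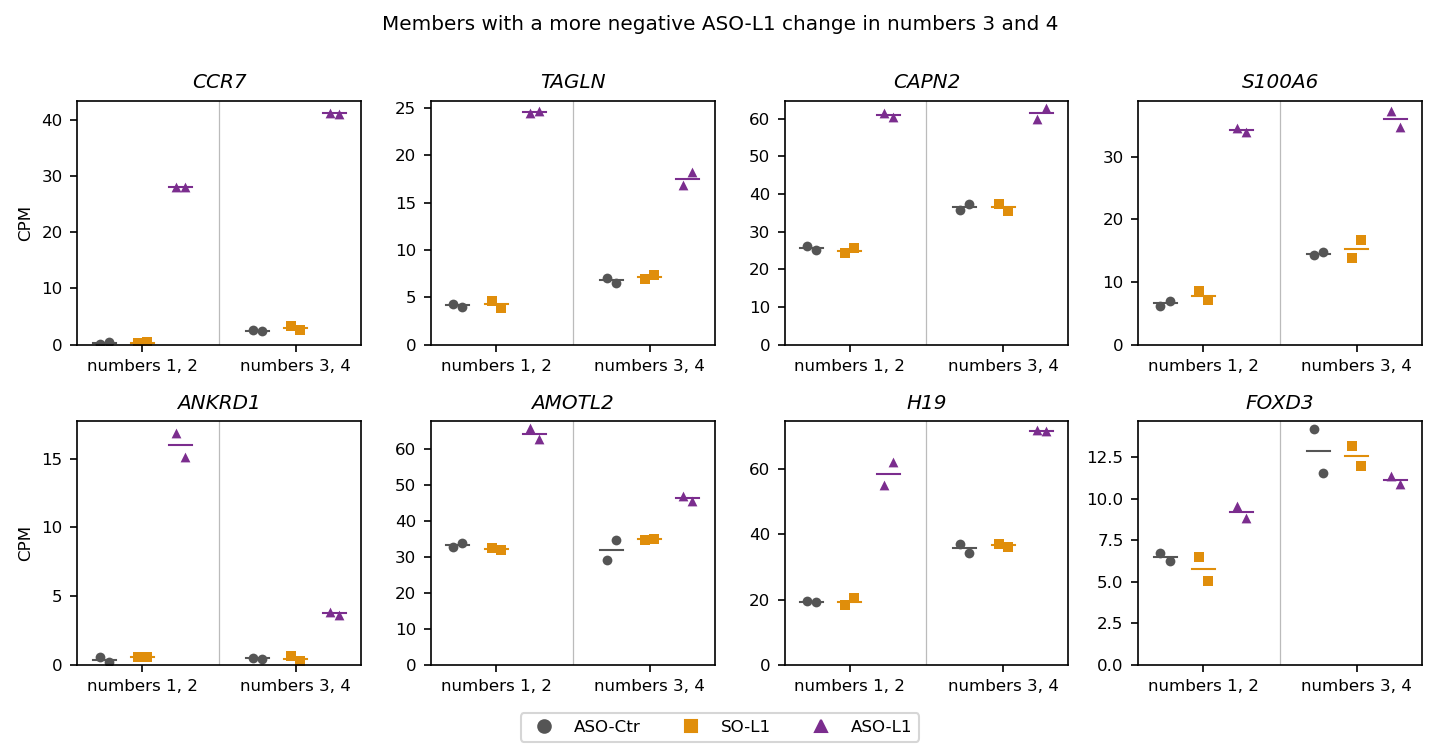
Level in CPM (vertical axis, linear, from 0) of 8 genes with a more negative response in numbers 3 and 4, 1 point per library and a line at the mean of the 2 libraries of an oligonucleotide and set. In all panels but the last, ASO-L1 stands above the controls in both sets, and for FOXD3 it passes from above the controls to below them.

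Keratins KRT8 and KRT18, the filament pair of simple epithelium, changed by 0.72 ± 0.04 and 0.68 ± 0.04 in numbers 1 and 2 and by 0.49 ± 0.04 and 0.38 ± 0.04 in numbers 3 and 4. Vimentin (VIM), COL1A1, a chain of fibrillar collagen, and SPARC, a matrix protein, changed by 1.39 ± 0.04, 1.02 ± 0.04 and 0.70 ± 0.04 and then by 1.15 ± 0.04, 0.68 ± 0.04 and 0.45 ± 0.04. NEFM, a neurofilament, was the 1 intermediate filament gene of 17 tested in the more positive group, at -0.58 ± 0.08 and -0.04 ± 0.08, against 3 in the more negative. COL1A1 passed in all 12 fits without 1 library, KRT18 not without ASO-L1 1 (adjusted p = 0.0885), KRT8 not without ASO-L1 1, 2 or 3 (up to 0.123). SPARC passed in 7 (up to 0.153), NEFM in 5 (up to 0.136) and VIM in 4 (up to 0.233). COL1A1, VIM, SPARC and TAGLN are 4 of 14 tested markers of fibroblasts and feeder cells. That list summed to 790.9 to 810.2 CPM in the controls and 1246 to 1262 CPM with ASO-L1 in numbers 1 and 2. For numbers 3 and 4 it was 866.9 to 902.3 CPM and 1146 to 1185 CPM. FAP, a defining fibroblast marker, was listed at 0 counts in every library. KRT8 and KRT18 are 2 of 12 tested trophectoderm and amnion markers, whose sum was 613.9 to 626.2 and 943.8 to 971.1 CPM in the first set and 698.8 to 748.2 and 967.8 to 1000.2 CPM in the second. Most of these 12 markers leaned the other way from the 2 keratins. Their set difference was above 0 for 8 and below 0 for 4, with a median of 0.23. The part of other cell types in these results was not tested, and in bulk RNA fewer cells of a type cannot be told apart from less RNA per cell. Of 8 primitive endoderm markers and 10 germ layer markers tested, 0 were members.

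The more negative group also held genes with small changes around 0. ZSCAN10, a zinc finger factor of pluripotent cells, measured 210.0 to 225 CPM in the controls and 224 and 238 CPM with ASO-L1 in numbers 1 and 2, where the groups overlapped. The values in numbers 3 and 4 were 215 to 238 CPM and 203 and 202 CPM, with ASO-L1 below all controls. Its changes were 0.10 ± 0.04 and -0.15 ± 0.04. NDST1, which modifies heparan sulfate, changed by 0.10 ± 0.04 and -0.13 ± 0.04, and MED16, a Mediator subunit, by 0.11 ± 0.04 and -0.14 ± 0.04. HCFC1, CREBBP and DIDO1, regulators of chromatin and transcription, had set differences of -0.25, -0.28 and -0.21. Of these 6 genes NDST1 alone passed with the GC offsets described next. HCFC1 was lost without ASO-L1 2 or 4, ZSCAN10 without ASO-L1 2, 3 or 4, and NDST1 without any 1 ASO-L1 library (adjusted p up to 0.149, 0.248 and 0.11). DIDO1 passed in 4 of the 12 fits without 1 library and MED16 and CREBBP in 3 each (up to 0.425).

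GC content moved with the set difference over the whole table. The longest annotated transcript (GENCODE 29) had a median GC content of 57.9% in the more negative group (110 of 118 genes with a transcript), 47.1% in the more positive group (60 of 68) and 48.9% over all genes tested. In 4 bins of GC content with equal numbers of genes, from low to high and over genes above 1 in mean log2 CPM, the median set difference was 0.025, 0.002, -0.025 and -0.065. The top bin held 65 of the more negative genes and the bottom bin 3. With a GC curve fitted in each library and added to the model's offsets, an alternative chosen after the data were seen, 57 of 60 more positive genes and 67 of 110 more negative genes with a transcript still passed, among 15093 genes tested. The calls over all these genes were then 76 more positive and 71 more negative. CCR7, TAGLN, CAPN2, S100A6, ANKRD1, AMOTL2, H19 and FOXD3 were among those that passed, while MYC, VIM, ZYX, SNHG7, TIMP3 and RRP12 did not. Without 1 library TIMP3 passed in 3 of 12 fits (adjusted p up to 0.203), MYC and VIM in 4, ZYX in 5, SNHG7 in 6 and RRP12 in 8. All 170 genes with a transcript kept their sign, which the choice of genes makes likely, and the median shift of a set difference was 0.04.

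**Figure D5:**
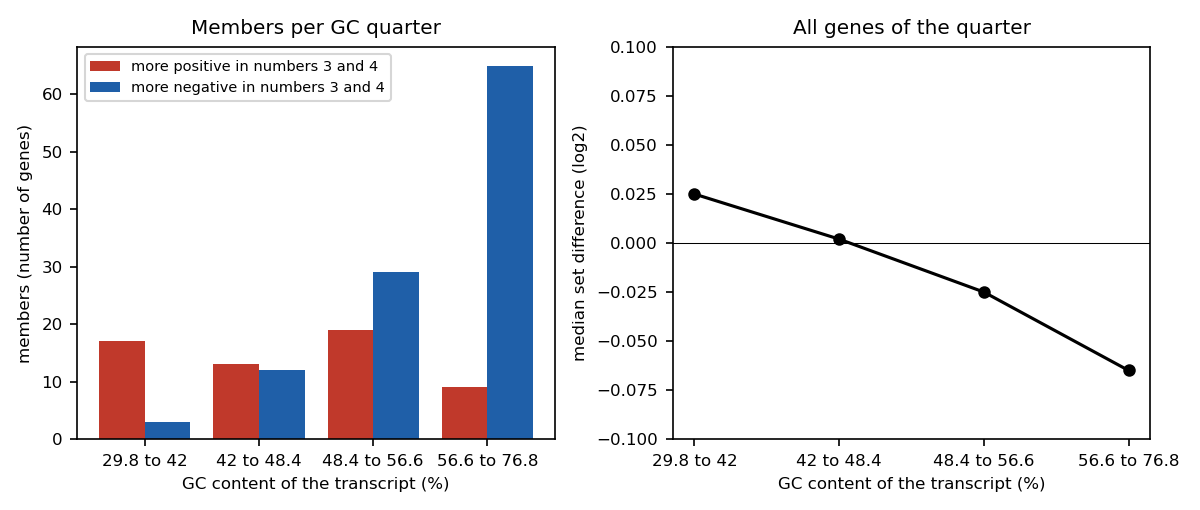
Left, number of genes whose response depended on the set in each of 4 bins of transcript GC content (horizontal axis, percent), split by direction; right, median set difference (log2) over all genes of the bin above 1 in mean log2 CPM. More negative genes number 3 in the lowest bin and 65 in the highest, and the median falls from 0.025 to -0.065.

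Of the remaining lists, the more positive group held GADD45A of 30 tested ATF4 targets, CDKN1A of 24 p53 targets, HLA-E of 31 interferon genes and TXNIP of 19 NRF2 and redox genes. The more negative group held TNFAIP2 of 14 NF-kB targets, RRP12 of 40 nucleolar genes and S100A6 of 15 S100 and annexin genes. It also held SNHG7 of 17 snoRNA host genes and FZD7 of 21 primed genes. Of 39 tested collagen and matrix genes 4 were in the more negative group. Of these, S100A6 passed in all 12 fits without 1 library, RRP12 in 8 (adjusted p up to 0.231), SNHG7 in 6 (up to 0.38) and TNFAIP2 in 4 (up to 0.206), and HLA-E in 9 (up to 0.15). TNFAIP2 and SNHG7 also did not pass in DESeq2, in limma-voom, with GC offsets or against ASO-Ctr alone. The lists of ER stress (21 genes), metallothioneins (8), lysosome (29), cell cycle (43), PRC2 targets (16) and Nodal and Wnt (20) held 0 members. Lists with few or no members could also lean to 1 side. The set difference was below 0 for 36 of the 40 nucleolar genes and above 0 for 4 (median -0.06). It was below 0 for 26 of the 35 silencing factors of L1 and heterochromatin and above 0 for 9. For the 30 ATF4 targets it was above 0 for 23 and below 0 for 7.

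The average change over both sets is a contrast that did not choose the genes, taken from the same 12 libraries. Among the 68 more positive genes 43 rose with ASO-L1 on average, 17 fell and 8 did not pass, and among the 118 more negative genes 94 rose, 6 fell and 18 did not pass (edgeR adjusted p under 0.05). Over all genes 48.5% passed, 24.2% higher and 24.3% lower. Both contrasts share 1 estimate of the spread, and whether these shares are particular to the 186 genes was not tested. Among those that did not pass were genes whose change crossed 0, such as STOM at 0.004 ± 0.03 (adjusted p = 0.926) and ZSCAN10 at -0.03 ± 0.03 (adjusted p = 0.485). The response was also a little smaller in numbers 3 and 4 over the table. The 460 genes raised at least 2-fold on average had a median change of 1.63 in numbers 1 and 2 and 1.47 in numbers 3 and 4, and 61.1% of them were smaller in the second set. For the 4355 genes lowered on average the medians were -0.26 and -0.24.

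The 2 controls also allowed a comparison without ASO-L1. SO-L1 against ASO-Ctr, averaged over sets, passed for 10 of the 186 genes, all higher with SO-L1, where 2.2% of all genes passed (394 genes). They were BHLHE40 (0.23 ± 0.04, adjusted p = 0.000233), GEM, GADD45A, HSPA2 and NPTX1 in the more positive group and FLNC (0.24 ± 0.04, adjusted p = 8.09e-06), EMP1, TPPP3, FAM65B and CLDN4 in the more negative. EMP1, an epithelial membrane protein, differed by 0.50 ± 0.10 and TPPP3, a tubulin-binding protein, by 0.70 ± 0.14. For each of the 10 the SO-L1 difference was smaller in size than the larger of its 2 ASO-L1 changes. The choice of genes by the gap between those changes makes this likely. It need not hold for the smaller change, which for BHLHE40 was 0.07 ± 0.07 in numbers 1 and 2. The set differences of BHLHE40, HSPA2 and CLDN4 passed in all 12 fits without 1 library, those of EMP1 in 8 (adjusted p up to 0.0979), TPPP3 in 6 (up to 0.136), FAM65B in 4 (up to 0.161) and NPTX1 in 3 (up to 0.214). TPPP3 did not pass with the replicate number as a block. SO-L1 against ASO-Ctr compared between the sets passed for 0 of the 186 genes and for 0 of 17947 in edgeR, with 924 genes (5.15%) at an unadjusted p under 0.05, and for 0 in DESeq2. At an unadjusted p under 0.05 it held 18 of the 186 genes, BHLHE40 among them. The set difference of ASO-L1 had 2138 genes (11.9%) at an unadjusted p under 0.05, in the model of 4 means with 2 against 4 libraries per set. The SO-L1 comparison used the model of 6 means with 2 against 2 libraries per set, so these shares are not like for like.

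Genes most like BHLHE40 across the 12 libraries, by Pearson's r of log2 CPM among the 186 genes, were C5orf28 and ERO1L (0.973 each), C1orf61 (0.962) and DPPA3 (0.954). The libraries share 2 sets whose controls differ in these genes, so r is a description of this series. At the edge of the rule, PEA15, AC006129.4 and TACC1 were just inside (adjusted p of 0.0487 to 0.0496) and ATP1B3P1, ZMIZ1 and CHCHD10 just outside (0.0504 each). PEA15 had a set difference of -0.23 and ZMIZ1 of -0.24, so the 2 sides of the threshold are alike in size. ATP1B3P1 (3.66) had its highest library at 0.533 CPM. AC006129.4 had the largest more positive set difference, 2.31, at 1.32 and 1.19 CPM with ASO-L1 in numbers 3 and 4 and at most 0.373 CPM elsewhere. It passed in 2 of the 12 fits without 1 library (adjusted p up to 0.243), as did C5orf28 (up to 0.242), while PEA15 and TACC1 passed in 3 each (up to 0.248 and 0.348).

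The membership depended on the libraries used. Without the ASO-L1 library of number 2 the calls fell to 30 more positive and 37 more negative genes, without that of number 4 to 35 and 44, and without that of number 1 to 38 and 65. Against ASO-Ctr alone 44 and 75 genes passed, against SO-L1 alone 169 and 387. Of the 186 genes, 86 passed against ASO-Ctr alone and 171 against SO-L1 alone. Among the described genes that did not pass against ASO-Ctr alone were TXNIP, P4HA1, HIF1AN, CCNA1, SQLE, STARD4 and ACSS2. KRT8, VIM, SPARC, NEFM, FZD7, ZYX, MYC, ZSCAN10, NDST1, MED16, DIDO1 and RRP12 did not pass there either. In each fit of this paragraph all 186 genes kept the sign of their set difference. That difference chose them in the same libraries, so kept signs largely follow from the choice. BHLHE40, PFKFB3, ANGPTL4, SGK1, HMGCS1, DPPA3, EGLN3, CCR7, TAGLN, CAPN2, S100A6, AMOTL2, H19, FOXD3 and COL1A1 were among the 50 genes that passed in every alternative that gave them a value.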

How the data were processed

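RNA of 12 libraries was compared: 3 oligonucleotides with 4 numbered libraries each, made as directional poly(A) RNA libraries per the labels' protocols. The submitters' processing notes list build hg19 and, with no order, Subread 1.5.0 (featureCounts), TopHat2 2.0.13 and Trim Galore 0.4.0; strand settings are not given in the sources used here. The deposited table holds whole-number counts per gene symbol. Its column names sit 1 cell to the left and were matched to samples accordingly; 1 row with no gene name (10 counts, 3.27e-06% of all) was left out. The authors also deposited log2 values marked as batch corrected, with the batches not given, used in 1 alternative.

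With edgeR 4.0.16 in R 4.3.3, 17947 of 53712 genes passed filterByExpr (least count 10, least total 15). TMM factors were 0.987 to 1.03, and a robust quasi-likelihood model had 4 means, ASO-L1 or controls by set. SO-L1 was compared with ASO-Ctr in a model of 6 means. The SE is the log2 change divided by the square root of F. CPM are scaled to the effective library size. The fits were tested on simulated counts. Counting error alone limits low levels. The counts are labelled rmDup, read here as duplicates removed, and PCR copies that remain are not independent molecules. Libraries of 1 oligonucleotide and set differed by more than sampling noise (chi-square per gene 1.87 or more).

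Named genes are the 12 per direction with the smallest p, those with passing changes of opposite sign, the largest differences, up to 3 members of each list, those nearest the threshold and those most like BHLHE40. Other genes were named after their values were seen, and a few genes under the rule are not reported here. Members, lists and rules were chosen with earlier results of these data known. With the oligonucleotide means removed, libraries of the same number correlated (r of 0.408 to 0.514), but so did the 2 numbers of a set (0.415 to 0.494). With set means removed as well, r was -0.0208 to 0.0787. Alternatives were a block for the number, DESeq2 size factors (RLE), no filter, a fit that is not robust, 6 means, either control alone, limma-voom and limma 3.58.1 on the deposited log2 values, DESeq2 1.42.0, leaving out each library, and GC offsets.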

Additional observations from a re-analysis of the deposited data

Results flagged for a closer look

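For 186 genes the ASO-L1 change differed between numbers 1 and 2 and numbers 3 and 4 by the test of the difference itself. Across 222 groups of 4 libraries of 1 oligonucleotide (74 named genes), 3 had a library far from the others by Dixon's test. Its critical value for 4 is 0.829, at which chance flags about 1 in 20 groups of like libraries. Each group here spans both sets, and where levels differ between the sets the 4 values form 2 pairs. Such pairs can hardly be flagged, so that rate does not apply and the low number of flags says little about the libraries. The gap divided by the range was 0.893 for TAGLN2 in ASO-L1 (number 1 highest, 355 and 336 CPM in numbers 1 and 2 and 338 and 337 CPM in numbers 3 and 4) and 0.849 for HLA-E, a nonclassical antigen-presenting protein, in ASO-L1 (number 3 highest, 52.3 and 51.7 and 55.7 and 51.9 CPM). It was 0.863 for AC006129.4 in SO-L1, which stood at no more than 0.339 CPM there. HLA-E did not pass without ASO-L1 1, 2 or 3 (adjusted p up to 0.15), and AC006129.4 passed in 2 of 12 fits without 1 library (up to 0.243). TAGLN2 passed in all 12.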

How the results depend on the processing

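All 186 genes kept the sign of their set difference in every alternative in which they had a value. The same difference in the same libraries chose them, so kept signs largely follow from the choice. The counts of more positive and more negative genes were 68 and 118, and with the replicate number as a block 62 and 118, with 166 of the 186 genes still called; among the genes named in the text AC006129.4, FLNC, FOSL1, HIF1AN, NPTX1, PEA15, RP11-1348G14.4, TACC1, TIMP3, TPPP3 and VIM lost the call under the block. The block changed no other call among them and no count of calls by over 1.5 times. With no filter on low counts 186 genes were more negative. A model of 6 means gave 126 and 254, ASO-Ctr alone as control 44 and 75, and SO-L1 alone 169 and 387. GC offsets gave 71 more negative genes, and 70 with the replicate block as well. DESeq2 gave 51 and 80, and 200 genes rather than 394 for SO-L1 against ASO-Ctr averaged over sets. Leaving out 1 library gave 30 to 81 more positive and 37 to 145 more negative genes, 233 to 536 genes for SO-L1 against ASO-Ctr, and 0 to 35 for its comparison between sets (35 without ASO-Ctr 2, 4 without ASO-Ctr 1 and 1 without SO-L1 4). Of these fits, the counts of more positive and more negative genes moved by over 1.5 times without ASO-L1 1, ASO-L1 2 or ASO-L1 4. The count for SO-L1 against ASO-Ctr averaged over sets moved by over 1.5 times without SO-L1 2, SO-L1 3 or ASO-Ctr 4. Near 0, POU5F1 turned to 0.015 with ASO-Ctr alone and NANOG to 0.007 with SO-L1 alone; without 1 library POU5F1 ranged from -0.048 to 0.004 and NANOG from -0.056 to 0.040. The cause of these shifts was not tested. Other counts stayed within 1.5 times. Each set has 2 ASO-L1 libraries, which limits the precision.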
